A study of Homo sapiens with 24 samples.

Results

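Butyrate alone was compared with no treatment in a human colorectal cancer cell line, on the 12 arrays of the series labelled NaB or untreated, out of 24. The 6 NaB arrays and the 6 untreated (Ctl) arrays were chosen by their titles and paired by experiment number, 1 of each per experiment. RNA was measured on 1-colour whole-genome Agilent arrays. The NaB cells received 5 mM sodium butyrate for 17.5 hr, and the Ctl cells, titled untreated, are given as mock-treated in the agent label. All cells in both groups were HCT-116 cells of 1 stably transfected clone, which carries a form of Tcf4 without its beta-catenin binding part (DN-Tcf4) under a doxycycline-inducible promoter. Neither NaB nor Ctl cells received doxycycline, so both carried the transgene without the inducer. The other 12 arrays held cells given 4 ug/ml doxycycline with (DoxyNaB) or without (Doxy) the same butyrate, again in 6 experiments. These arrays entered the shared estimate of the spread and 1 comparison at the end.

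Butyrate is a short-chain fatty acid that bacteria produce from dietary fiber in the colon. Colonic epithelial cells burn it as fuel, and at higher concentrations it inhibits histone deacetylases, the enzymes that remove acetyl groups from histone tails. In colorectal cancer cell lines, deacetylase inhibitors are known for growth arrest, changed differentiation and cell death.

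A level below is the log2 signal of a probe relative to the 75th percentile of its array, so 0 is that percentile. A change is the NaB level minus the Ctl level of the same experiment, given as the mean over experiments ± SD (n = 6), and adjusted p-values are Benjamini-Hochberg values of limma, with the experiment as a block. A gene was called at a fold over 2 with an adjusted p under 0.01. Levels of different genes come from different probes and were not compared with each other. In RNA from whole cultures, a lower level in every cell and fewer cells that express a gene cannot be told apart.

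Markers of the labelled cell type and of others were read on each array, where sums over different probes are not comparable between lists. Of 10 epithelial markers, 9 were measurable, and their summed level, in units of the 75th percentile, was 284.9 to 419.8 on the Ctl arrays and 328.1 to 634.1 on the NaB arrays. Those of blood cells summed to 2.05 to 2.85 on Ctl and 3.29 to 6.43 on NaB arrays (6 of 13 markers measurable), and those of fibroblasts and endothelium to 0.416 to 0.735 and 0.507 to 1.56 (3 of 12). PTPRC, CD3D, CD3E, ITGAM and MS4A1, which define blood lineages, did not reach the detection limit used here, nor did VIL1 among the epithelial markers. EPCAM, an epithelial adhesion molecule, fell by 1.55 ± 0.43, and the tight junction gene CLDN7 by 1.19 ± 0.18. Of the other cell types' markers 5 were called higher and 0 lower, among them CD14 (1.26), HBB (1.88), VWF (2.68) and COL1A1 (1.00). These 4 calls were lost when background was corrected with the normexp model of limma. HBB and VWF were well above background on 3 of the 6 Ctl arrays. The part of other cells in these values was not tested.

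Array signal varied with the experiment. Between 52.7% and 62.2% of spots were well above background in experiments 1, 5 and 6, and between 78.4% and 88.1% in experiments 2 to 4. Of all these spots 0 were saturated. Experiments 2 to 4 were scanned on 1 date and experiments 5 and 6 on another, so experiment and scan date cannot be told apart. The median level over all probes was higher on the NaB array in each of the 6 experiments, by 0.37 to 1.54, and the median negative control spot read 3.27 to 17.8 signal units on NaB arrays against 3.47 to 6.03 on Ctl arrays. Changes of 2 experiments correlated across probes with r between 0.787 and 0.949, a description over probes that share arrays. The r was 0.923 to 0.945 among experiments 2 to 4, 0.949 for experiments 5 and 6, and 0.794 to 0.892 across these scan dates. The NaB and Ctl arrays of experiment 1 lay on separate slides scanned on different dates, where slide, scan date and treatment cannot be told apart. Each of the other 5 experiments lay on 1 slide.

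Butyrate modulated a large part of the expressed genome. Of 15157 genes tested, 4846 were called (32.0%), of which 2847 were higher (18.8% of all tested) and 1999 lower (13.2%), and 10311 were not called. Of the 4846, 4769 moved the same way in every experiment. The 6 NaB levels did not overlap the 6 Ctl levels for 2225 of the genes called higher and 1857 of those called lower, where 22.4% of all genes tested had every NaB level above every Ctl level and 22.0% had every one below. The median fold was 3.06 for genes called higher and 2.71 for those called lower, but this set includes genes near background on the Ctl arrays. Among genes well above background on all 12 arrays the medians were 2.68 and 2.67. Past 16-fold stood 108 higher and 9 lower genes in all, and 17 and 7 of those well above background on all 12 arrays.

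The direction of the response varied with the level of the gene. In the dimmest sixth of genes, by mean level over all 24 arrays, 43.0% were called higher and 6.41% lower. Genes were tested when well above background on every array of 1 or more treatments. A dim gene could thus enter through the treatment where it was high, which bears on these shares. In the brightest sixth, 4.59% were called higher and 14.6% lower. The median change ran from 0.82 in the dimmest to -0.27 in the brightest sixth, with the 4 between them in order. Among the 12681 genes well above background on all 12 arrays, 1658 were called higher and 1768 lower, so 48.4% of those called were higher, against 58.8% of all called. The higher median level of the NaB arrays, seen in every experiment, moved with this pattern. Negative controls read higher on the NaB arrays in experiments 2 to 4 (7.54 to 17.8 signal units). They were nearly equal in experiment 1 (6.10 in NaB, 6.03 in Ctl). In experiments 5 and 6 they were lower in NaB (3.53 and 3.27) than in Ctl (4.24 and 3.47). The part of the median level and of the negative controls in the pattern was not tested.

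**Figure D1:**
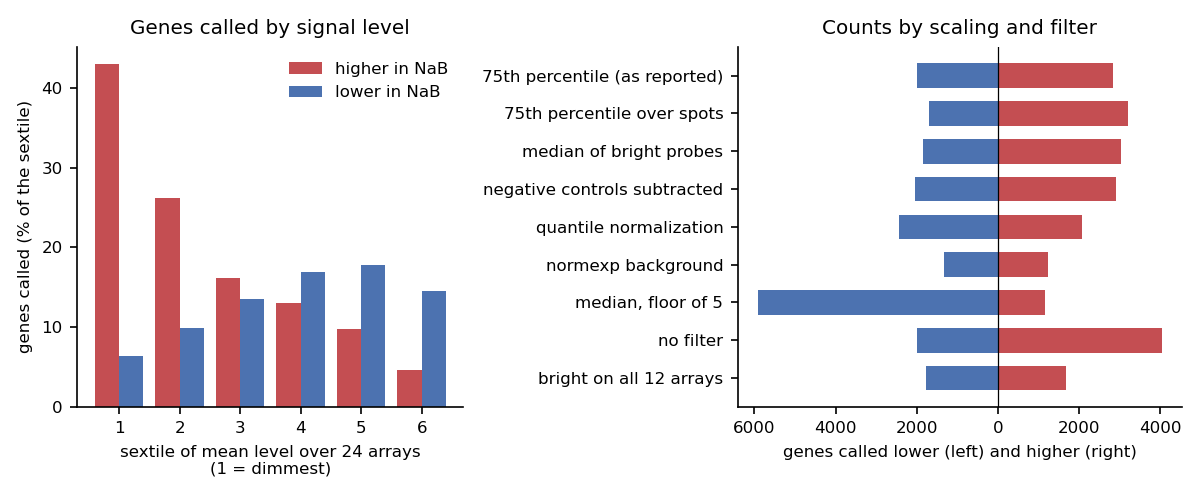
Left, percent of genes called higher (red) and lower (blue) in NaB against Ctl in each sixth of the 15157 genes by mean log2 level over 24 arrays, from dimmest (1) to brightest (6). Right, number of genes called lower (to the left of 0) and higher (to the right) under the scaling reported and under 8 other settings. The share called higher falls from 43.0% to 4.59% from left to right, and the 2847 higher and 1999 lower genes of the first bar become 1159 and 5908 when arrays are scaled to the median after a floor of 5.

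The count in each direction depended on how the arrays were scaled. With quantile normalization 2079 genes were called higher and 2431 lower (46.1% higher), with normexp background correction 1233 and 1322 (48.3%), and with each array scaled to its median after a floor of 5 signal units 1159 and 5908 (16.4%). The last scaling moved the median change of all genes from 0.07 to -0.74. Directions of groups of genes are therefore given below relative to the median change of all genes tested, as a relative median, beside the counts called.

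The largest increases were in genes of very different function. DHRS2, a mitochondrial short-chain dehydrogenase, was at -1.42, -0.92 and -0.25 (lowest, median and highest level) in Ctl cells and at 6.15, 6.49 and 7.20 in NaB cells. This was the largest change among genes well above background on all 12 arrays, 7.39 ± 0.56 or 167-fold (adjusted p = 1.73e-15), measured by a probe at chr14:23184340-23184400 of NCBI36. CCN2, a secreted matricellular protein also called CTGF, ranged from -2.85 to -1.68 (median -2.07) in Ctl and from 3.87 to 4.87 (median 4.40) in NaB cells, a change of 6.59 ± 0.62. Neither gene's groups came near each other. CEND1, a neuronal cell cycle exit protein, changed by 5.72 ± 0.62, and EFR3B, a plasma membrane scaffold of the phosphatidylinositol 4-kinase complex, by 5.42 ± 0.22. PEG10, an imprinted gene derived from a retrotransposon, changed by 5.36 ± 0.59.

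Secreted products and transcription factors followed. VGF, the precursor of neuropeptides, was already at 1.35 to 2.02 (median 1.64) in Ctl cells and reached 6.53 to 7.38 (median 6.82), 37.1-fold higher. GAST, the precursor of the hormone gastrin, ranged from -2.44 to -1.18 in Ctl and from 1.98 to 4.50 in NaB cells, the widest NaB range of the genes plotted, and changed by 4.88 ± 0.54. FOS, an AP-1 transcription factor, rose by 4.53 ± 0.31 from a Ctl median of -1.31 to a NaB median of 3.17. In all these genes each NaB array lay above each Ctl array. TCN2, a vitamin B12 carrier (18.9-fold), TIMP3, a metalloproteinase inhibitor (18.8-fold), and CRISPLD2, a secreted protein (18.6-fold), were also among the 15 highest.

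The largest decreases included genes of growth control and cell adhesion. PDE4B, which degrades cyclic AMP, was at 2.57, 2.64 and 2.75 in Ctl cells and at -2.82, -2.15 and -1.59 in NaB cells. Its fall of 4.78 ± 0.49 was the largest among genes well above background on all 12 arrays (adjusted p = 8.71e-15). HMGA2, a chromatin architectural protein of fetal and tumour cells, fell by 4.45 ± 0.39, from a median of 2.96 (2.52 to 3.08) to -1.61 (-2.07 to -0.92). Again the groups were far apart.

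MALL, a membrane raft protein, fell 21.0-fold, ITPRIPL2 19.5-fold, the membrane protein EMP1 19.3-fold and ANO1, a calcium-activated chloride channel, 17.99-fold. MACROH2A2, which encodes a large histone H2A variant of silent chromatin, fell by 4.06 ± 0.42, and TRIP6, an adaptor of focal adhesions, by 3.94 ± 0.21. ANXA3, an annexin, fell 14.8-fold. EREG, an EGF receptor ligand, fell by 3.596 ± 0.34, LIF, a cytokine of the IL-6 family, by 3.52 ± 0.11, and KCNN4, a calcium-activated potassium channel, by 3.49 ± 0.41. FOSL1, an AP-1 factor, fell by 3.54 ± 0.24 while FOS of the same family rose.

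**Figure D2:**
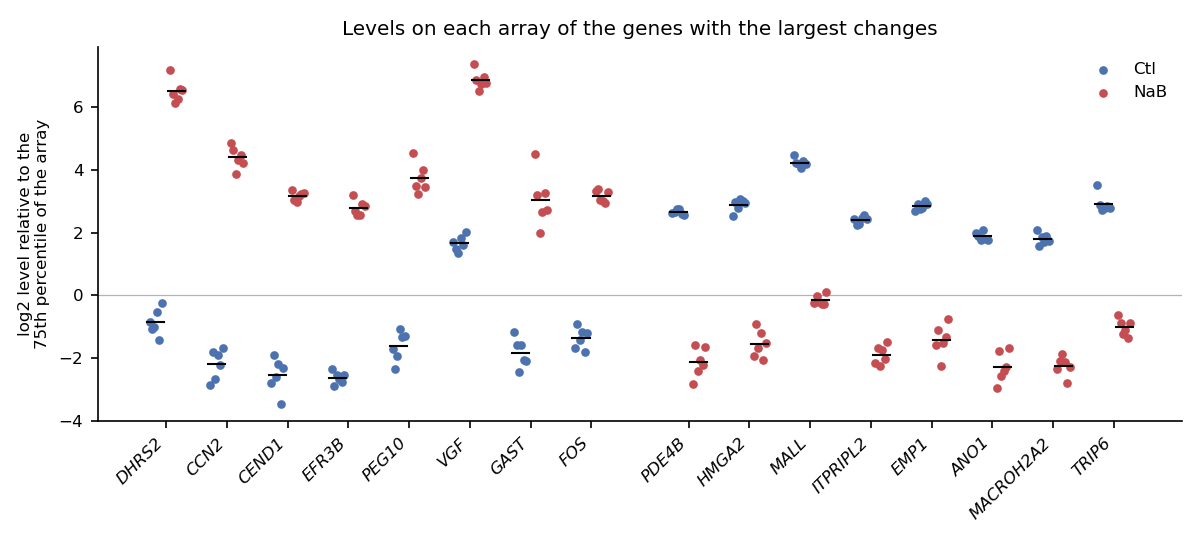
Log2 level relative to the 75th percentile of the array (0), for 8 genes with large increases and 8 with large decreases. All are genes well above background on every Ctl and NaB array, and not every gene with changes this large is drawn. Each point is 1 array, 6 Ctl (blue) and 6 NaB (red) per gene, and the black line is the group mean. The groups do not overlap in any of the 16 genes, and DHRS2 moves from below -0.25 to above 6.15.

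Some genes were detected in 1 group only. A set of 66 probes was well above background on all 6 NaB arrays and on 0 Ctl arrays, and 47 genes had such a probe and none detected in Ctl cells. For these the fold is a lower bound, the NaB mean over the lowest signal called well above background on the Ctl arrays. NR1H4, the nuclear bile acid receptor FXR, was at least 39.0-fold higher, at a mean of 0.31 in NaB cells. THY1, a surface glycoprotein of neurons and mesenchymal cells, was at least 23.9-fold higher, MMP10, a matrix metalloproteinase, at least 13.4-fold, and CCR4, a chemokine receptor, at least 11.8-fold. The reverse set, detected on 6 Ctl and 0 NaB arrays, was smaller, with 21 probes and 13 genes. In each of the 6 experiments more spots were well above background on the NaB array than on its Ctl array. The shares were 88.1% against 81.1% in experiment 2 and 62.2% against 59.1% in experiment 6. The part of this difference in the sizes of both sets was not tested. The reverse set held SEMA3A, an axon guidance signal, at least 9.15-fold lower, and the co-repressor ATN1, at least 6.80-fold lower. It also held LOXL4, a lysyl oxidase, at least 4.00-fold lower, and TLR3, the receptor for double-stranded RNA, at least 1.83-fold lower.

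The relative medians of functional groups lay on both sides of 0. A count called in a group is to be read beside the 18.8% higher and 13.2% lower of all genes tested. Each group below holds the tested members of a list of genes of 1 function. Its relative median is the median of its members' mean log2 changes minus that of all genes tested, and the SD beside it is that of the same value taken within each experiment. At the low end stood cyclins and their kinases, mitosis, DNA replication, nucleotide synthesis and the HOX genes. Metallothioneins, histone genes and genes typical of neurons stood at the high end, and cytosolic ribosomal proteins, oxidative phosphorylation, junction proteins and solute carriers lay near the middle. Of 27 groups whose relative median was over 0.5 in size, 4 changed sign under any setting tried: AP-1 and ATF factors, mucins, Wnt ligands and ion channels. The size of the relative median was less stable, and moved by over 1 SD in 37 of 66 lists with normexp correction and in 48 with quantile normalization.

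**Figure D3:**
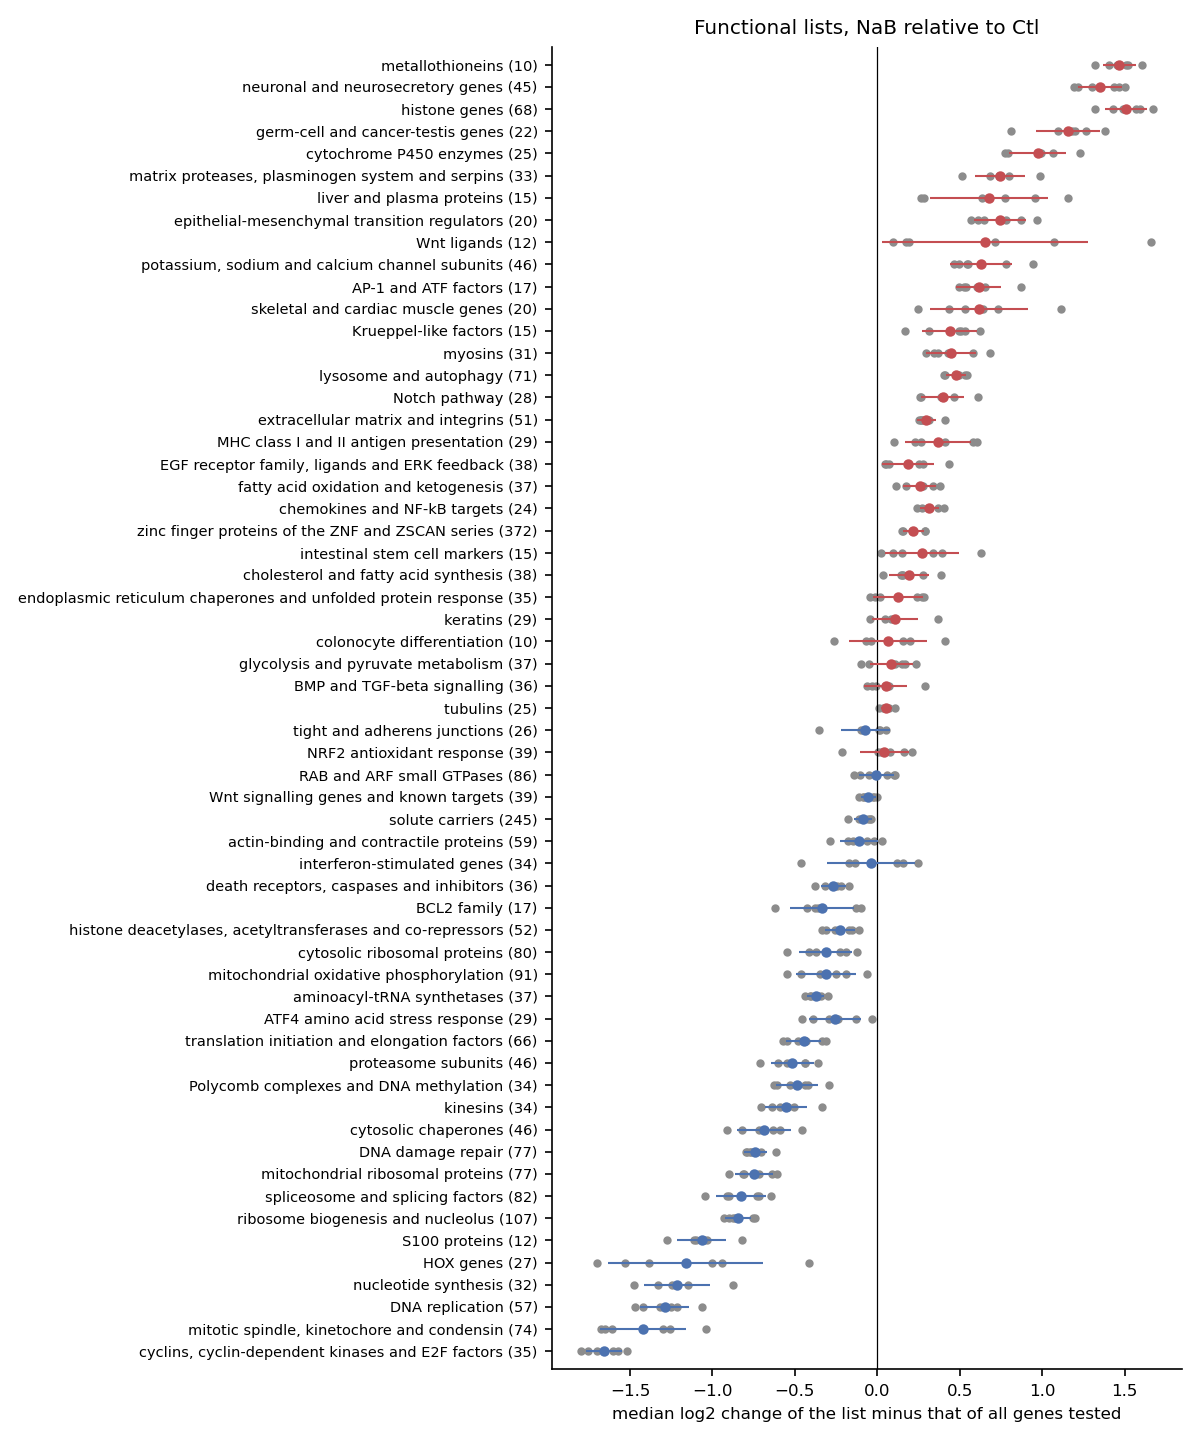
Median log2 change of functional lists minus that of all genes tested, with the number of tested members in brackets. Grey points are the 6 experiments, the coloured point and bar their mean ± SD, red where that mean is above 0 and blue where it is below. Cyclins, mitosis and DNA replication lie below -1 in every experiment, metallothioneins, neuronal genes and histone genes above 1, and of the lists drawn, those with 10 or more tested members, the Wnt ligands and HOX genes spread most between experiments.

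Cell cycle genes had the lowest medians of all groups. Of 57 DNA replication genes, 35 were called lower and 0 higher, with a relative median of -1.35 ± 0.15 (SD over experiments, n = 6). Of 74 genes of the mitotic spindle, kinetochore and condensin, 53 were called lower and 0 higher, and of 35 cyclins, cyclin-dependent kinases and E2F factors 25 were lower and 1 higher (relative median -1.55 ± 0.11). These shares, 61.4%, 71.6% and 71.4%, stand against 13.2% of all genes.

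Among replication genes, POLE2, a subunit of DNA polymerase epsilon, was at 0.70, 0.85 and 1.10 in Ctl and at -2.09, -1.67 and -1.46 in NaB cells. It fell by 2.59 ± 0.17 (adjusted p = 3.39e-14). GINS3, of the replicative helicase, fell by 2.10 ± 0.29, and the helicase subunit MCM2 by 2.06 ± 0.28. PCNA, the sliding clamp, differed by -0.96 ± 0.21, short of 2-fold, with all 6 NaB levels below the Ctl levels. Among mitotic genes, UBE2C, the ubiquitin-conjugating enzyme of the anaphase-promoting complex, fell by 2.43 ± 0.40 from a median of 4.92 to 2.37. AURKB, a mitotic kinase, fell by 2.42 ± 0.39, and ESPL1, the protease that separates sister chromatids, by 2.26 ± 0.49. MKI67, the proliferation antigen Ki-67, ranged from 0.82 to 1.48 in Ctl and from -1.03 to -0.36 in NaB cells, a fall of 1.99 ± 0.27.

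Regulators of the cycle split. E2F2, an activator of S phase genes, fell 7.09-fold, WEE1, the kinase that holds CDK1 inactive, 7.82-fold, CCNA2 (cyclin A2) 6.58-fold and CCND1 (cyclin D1) 4.21-fold. CCND3 (cyclin D3) was the 1 member called higher, 2.12-fold, a call lost without experiment 1 (log2 change 1.00). Of the 8 CDK inhibitors, 3 were called higher and 2 lower. CDKN1C (p57) was at 1.45, 1.59 and 1.96 in Ctl and at 4.52, 4.79 and 5.61 in NaB cells, a rise of 3.24 ± 0.35. CDKN2D (p19) rose by 1.56 ± 0.22. CDKN2A (p16 and p14ARF) fell by 1.90 ± 0.22 and CDKN1B (p27) by 1.03 ± 0.23, the latter call lost without experiment 3 or 4 and under other scalings. CDKN1A (p21), a CDK inhibitor with a known response to butyrate, differed by 0.47 ± 0.24 (adjusted p = 0.00141), below 2-fold, and its levels overlapped (0.90 to 2.45 in Ctl, 1.58 to 2.94 in NaB). With arrays scaled to their median (floor 5) its change was -0.34.

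**Figure D4:**
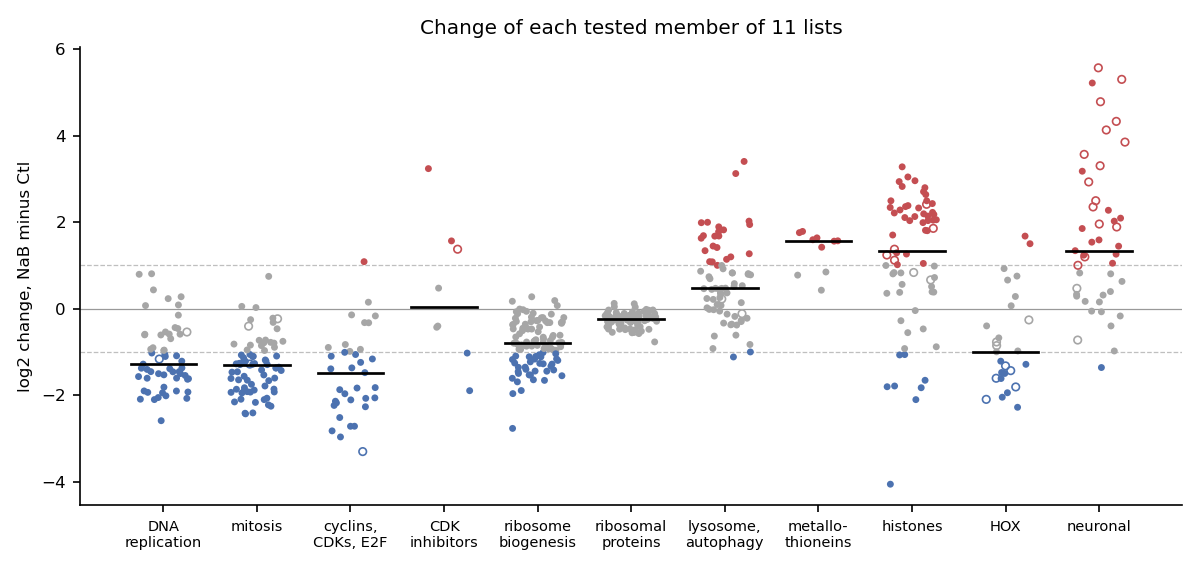
Log2 change of every tested member of 11 lists, NaB minus Ctl. Red points were called higher, blue lower and grey not called, open circles mark genes not well above background on all 12 arrays, black lines are list medians and dashed lines 2-fold. Replication and mitosis genes lie almost wholly below 0, ribosomal proteins cluster just below it, and the neuronal list reaches 5.57 with many open circles.

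The promoters of these groups were searched for short sequence motifs. The window was 250 bases before to 50 bases after each gene's RefSeq start, and 10500 tested genes had one. The 8 motifs searched, on both strands, were the GC box GGGCGG, the CCAAT box, the TATA box written as TATAAA, the E-box CACGTG, the cyclic AMP response element TGACGTCA, the cell cycle word TTTGAA and the E2F-type words TTTGGCGC and TTTCGCGC. TTTGAA, the core of the cell cycle genes homology region, was in 66.1% of 62 promoters of mitotic genes and in 80.0% of the 45 called lower, against 9.54% of all tested promoters. The E2F-type words TTTGGCGC and TTTCGCGC were each in 20.7% of 29 replication genes called lower, against 1.09% and 1.06% of all. CACGTG, which MYC and other factors bind, was in 35.6% of 90 ribosome biogenesis promoters and in 40.6% of the 32 called lower, against 10.2%. The CCAAT box was in 83.9% and TATAAA in 61.3% of 62 histone promoters, against 37.1% and 5.96%. A match is a description of the letters and not a shown binding site, and these words are typical of the gene groups themselves.

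The promoters of 6 genes are printed to show these words in genes that moved: ESPL1 and MKI67 for mitosis, POLE2 for replication, MRTO4 for ribosome biogenesis, H2AC19 for histones and VGF for the neuropeptides. Sequences are from RefSeq on GRCh38.p14, 5′ to 3′ on the gene's strand, with the motifs named for each gene in capitals and any other of the 8 left in lower case. A motif on the other strand appears as its reverse complement, so CCAAT can appear as ATTGG. ESPL1 lies at chr12:53268049-53268348 (plus strand), with CCAAT at -48 and TTTGAA at -31 from the start. MKI67 lies at chr10:128126374-128126673 (minus), with TTTGAA at -47 and -29 and CCAAT at -98 and -24, where the last TTTGAA and CCAAT overlap. POLE2 lies at chr14:49688165-49688464 (minus), with TTTGGCGC at -5. MRTO4 lies at chr1:19251555-19251854 (plus), with CACGTG 14 bases after the start. H2AC19 lies at chr1:149850811-149851110 (plus), with CCAAT at -96 and -67 and TATAAA at -30. VGF lies at chr7:101165520-101165819 (minus), with TGACGTCA at -79 and TATAAA at -32.
ESPL1: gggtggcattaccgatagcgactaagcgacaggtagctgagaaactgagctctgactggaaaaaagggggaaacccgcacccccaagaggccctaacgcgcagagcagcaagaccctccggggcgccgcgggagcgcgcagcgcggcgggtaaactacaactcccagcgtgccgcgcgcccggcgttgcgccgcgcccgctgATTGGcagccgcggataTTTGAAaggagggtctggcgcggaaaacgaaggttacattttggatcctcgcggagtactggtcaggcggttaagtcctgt
MKI67: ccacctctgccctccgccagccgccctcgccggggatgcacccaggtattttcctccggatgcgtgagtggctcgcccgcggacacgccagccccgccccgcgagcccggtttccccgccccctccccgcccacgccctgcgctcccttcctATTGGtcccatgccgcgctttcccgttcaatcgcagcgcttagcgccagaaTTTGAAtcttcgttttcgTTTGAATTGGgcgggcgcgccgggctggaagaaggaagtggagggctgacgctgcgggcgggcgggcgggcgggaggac
POLE2: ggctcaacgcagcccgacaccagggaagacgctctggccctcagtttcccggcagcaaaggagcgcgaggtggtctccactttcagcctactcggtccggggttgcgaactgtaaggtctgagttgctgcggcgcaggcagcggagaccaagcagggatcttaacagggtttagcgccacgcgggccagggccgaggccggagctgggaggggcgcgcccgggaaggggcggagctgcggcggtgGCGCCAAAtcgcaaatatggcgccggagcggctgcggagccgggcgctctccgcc
MRTO4: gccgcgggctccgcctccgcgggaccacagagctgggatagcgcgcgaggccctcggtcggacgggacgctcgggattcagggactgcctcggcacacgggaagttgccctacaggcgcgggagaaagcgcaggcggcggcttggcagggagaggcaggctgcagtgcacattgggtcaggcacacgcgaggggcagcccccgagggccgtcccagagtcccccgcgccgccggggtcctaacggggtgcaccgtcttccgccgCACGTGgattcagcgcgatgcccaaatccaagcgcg
H2AC19: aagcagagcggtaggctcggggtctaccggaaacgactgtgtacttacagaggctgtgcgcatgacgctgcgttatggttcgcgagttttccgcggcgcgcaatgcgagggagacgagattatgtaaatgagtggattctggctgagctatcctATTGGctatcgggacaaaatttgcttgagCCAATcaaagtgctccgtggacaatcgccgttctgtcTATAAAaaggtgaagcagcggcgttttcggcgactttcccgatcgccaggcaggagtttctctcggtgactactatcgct
VGF: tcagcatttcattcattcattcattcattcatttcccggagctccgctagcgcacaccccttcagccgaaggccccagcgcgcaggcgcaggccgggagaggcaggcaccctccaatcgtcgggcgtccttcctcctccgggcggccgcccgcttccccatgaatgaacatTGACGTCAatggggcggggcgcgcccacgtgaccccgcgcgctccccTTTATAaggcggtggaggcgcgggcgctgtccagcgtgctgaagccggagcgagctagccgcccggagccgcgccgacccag

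DNA repair and nucleotide synthesis genes that were called were mostly lower. Of 77 DNA damage repair genes 29 were called lower (37.7%) and 2 higher, and of 32 nucleotide synthesis genes 19 were lower (59.4%) and 0 higher, beside 13.2% lower among all genes. UNG, which removes uracil from DNA, fell by 2.80 ± 0.20. FANCF, of the Fanconi core complex, rose by 1.33 ± 0.24. TYMS, thymidylate synthase, ranged from 4.85 to 5.20 in Ctl and from 1.26 to 2.19 in NaB cells, 11.01-fold lower, and CTPS1, which makes CTP, fell 4.88-fold.

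A part of the genes for making ribosomes was called lower, and none of those for the cytosolic ribosome's own proteins was called. Of 107 ribosome biogenesis and nucleolar genes, 35 were called lower (32.7%, against 13.2% of all genes), 0 higher and 72 neither way, with a relative median of -0.86 ± 0.08. UBTF, the transcription factor of ribosomal RNA genes, was at -0.08, 0.05 and 0.67 in Ctl and at -3.07, -2.45 and -2.34 in NaB cells, 6.82-fold lower. EMG1, a methyltransferase of the small subunit, fell by 1.97 ± 0.15, and MRTO4, an assembly factor of the large subunit, by 1.55 ± 0.32. All 80 cytosolic ribosomal protein genes stayed within a log2 change of -0.77 to 0.12, and 0 were called by limma at these thresholds. MYC, an activator of ribosome genes, differed by -0.95 ± 0.16 (adjusted p = 2.84e-09), just under 2-fold, with no overlap between groups.

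Mitochondrial ribosome, splicing and translation genes that were called were nearly all lower. Of 77 mitochondrial ribosomal protein genes 23 were called lower (29.9%) and 0 higher, with MRPS18B (-1.84 ± 0.12) and MRPL11 (-1.71 ± 0.22) lowest. Of 82 spliceosome and splicing genes, 29 were called lower (35.4%) and 0 higher, among them U2AF2, which binds the 3′ splice site (-1.87 ± 0.12), and HNRNPD, an AU-rich element binding protein (-1.73 ± 0.23). Among 37 aminoacyl-tRNA synthetases 6 were lower, 16.2% and so near the 13.2% of all genes, and 0 higher, led by the mitochondrial histidine enzyme HARS2 (-1.495 ± 0.15). Of 66 translation initiation and elongation factors and their kinases, 14 were lower (21.2%), EEF2K among them (-1.43 ± 0.23), and 2 higher.

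Genes of protein folding and breakdown moved in both directions. Of 46 cytosolic chaperones 13 were called lower (28.3%, beside 13.2% of all genes) and 4 higher (8.70%, beside 18.8%). BAG2 and HSPH1, partners of HSP70, fell by 2.45 ± 0.30 and 2.07 ± 0.24, while HSPA2, an HSP70 of testis, rose by 2.19 ± 0.35. Of 46 proteasome subunits 4 were lower (8.70%) and 2 higher (4.35%), both under the shares of all genes. The catalytic subunit PSMB5 fell by 1.70 ± 0.21. The immunoproteasome subunits divided, with PSMB10 lower by a change of -1.78 ± 0.11 and PSMB9 higher by 2.15 ± 0.48. Of 35 endoplasmic reticulum chaperone and unfolded protein response genes, 4 were higher, SEL1L among them (1.65 ± 0.53), and 1 lower, the response's transcription factor XBP1 (-1.20 ± 0.14). In the ATF4 amino acid stress group (3 higher, 8 lower of 29), the transcription factors ATF3 and DDIT3 (CHOP) rose by 2.34 ± 0.17 and 1.75 ± 0.31, while SLC7A11, the cystine transporter, fell by 2.23 ± 0.91, with a change of -0.49 in experiment 1.

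Lysosome and autophagy genes that were called were mostly higher. Of 71 tested, 22 were called higher (31.0%, against 18.8% of all genes) and 2 lower, with a relative median of 0.40 for changes averaged over experiments and of 0.41 to 0.55 within single experiments, and 69 of the 71 were well above background on all 12 arrays. NEU1, the lysosomal sialidase, was at 0.14, 0.22 and 0.63 in Ctl and at 3.19, 3.73 and 4.07 in NaB cells, 10.6-fold higher. SMPD1, acid sphingomyelinase, rose by 3.12 ± 0.38, the protease CTSB (cathepsin B) by 1.68 ± 0.14, and the autophagy receptor and membrane genes SQSTM1 and MAP1LC3B by 1.68 ± 0.34 and 1.69 ± 0.19. TFEB, the transcription factor of lysosomal genes, rose 2.12-fold, a call lost with normexp correction. Scaled to the median after a floor of 5, the count turned to 8 higher and 13 lower.

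Most tested genes of the metabolic groups that follow were not called, 82 of 91 in oxidative phosphorylation and 31 of 37 in glycolysis and pyruvate metabolism. Of 91 oxidative phosphorylation genes 7 were called lower (7.69%, beside 13.2% of all genes) and 2 higher (2.20%, beside 18.8%). ATP5MC1 of the ATP synthase was lowest of those on all arrays (-1.49 ± 0.26). Of 37 genes of glycolysis and pyruvate metabolism 5 were higher (13.5%) and 1 lower (2.70%). The aldolase ALDOC rose by 2.84 ± 0.29, and the mutase PGAM1 fell by 1.38 ± 0.19. Of 38 cholesterol and fatty acid synthesis genes 9 were higher (23.7%) and 5 lower (13.2%). The former included TM7SF2, a sterol reductase (1.98 ± 0.21), and INSIG1, the sterol sensor's partner (1.53 ± 0.51). The latter included the desaturase FADS2 (-1.495 ± 0.31) and the elongase ELOVL6 (-1.30 ± 0.16).

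Of 37 genes of fatty acid oxidation and ketogenesis, 10 were higher (27.0%, beside 18.8% of all genes) and 3 lower (8.11%, beside 13.2%). ACADSB, a dehydrogenase of short branched acyl chains, rose by 1.77 ± 0.21, and ETFDH, which passes electrons from acyl-CoA dehydrogenases to ubiquinone, by 1.54 ± 0.21. PPARG, a nuclear receptor of fat and colon cells, fell by 2.02 ± 0.16, and the ketone body enzyme BDH1 by 1.59 ± 0.51. SLC16A1 (MCT1), a butyrate transporter, differed by -0.21 ± 0.27 (adjusted p = 0.273) with overlapping levels. SLC5A8, the sodium-coupled butyrate transporter, and FFAR2, a short-chain fatty acid receptor, were well above background on 0 of the 12 arrays, and FFAR3 did not reach the limit for testing.

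Metal binding and detoxification genes included the most uniform increase. Of 10 metallothioneins, small cysteine-rich proteins that bind zinc and copper, 7 were called higher and 0 lower, with a relative median of 1.49 ± 0.10. MT2A was at 6.17, 6.32 and 7.18 in Ctl and at 7.74, 8.11 and 9.06 in NaB cells, a rise of 1.76 ± 0.10, and MT1L rose by 1.78 ± 0.17. These genes are alike in sequence, and how far their probes share signal was not tested. Scaled to the median after a floor of 5, 0 of the 10 were called by limma in either direction.

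Of 25 cytochrome P450 enzymes, 13 were higher (52%, beside 18.8% of all genes) and 2 lower (8%, beside 13.2%). Only 18 of the 25 were well above background on all 12 arrays, and of these 8 were higher and 1 lower. CYP4F12, a fatty acid hydroxylase, rose by 2.78 ± 0.18, and CYP24A1, which inactivates vitamin D, fell by 2.28 ± 0.17. NRF2 pathway genes went both ways (8 higher and 7 lower of 39). SRXN1, sulfiredoxin, rose by 1.61 ± 0.16. KEAP1, the NRF2 inhibitor, fell by 2.68 ± 0.08, and ABCC2, a conjugate export pump, fell by 3.28 ± 0.34. Of 245 solute carriers 39 were higher and 39 lower, 15.9% each and so near the shares of all genes. The mitochondrial ADP/ATP carrier SLC25A4 rose 4.84-fold, and the glutamine transporters SLC38A1 and SLC38A5 fell 10.2-fold and 11.2-fold.

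Histone genes were mostly higher, in contrast to the rest of the S phase genes. Of 68 tested, 40 were called higher (58.8%) and 8 lower, with a relative median of 1.26 for changes averaged over experiments and of 1.32 to 1.68 within single experiments, and among the 61 on all 12 arrays 35 were higher and 8 lower. H2AC19 was at -0.78, -0.66 and -0.07 in Ctl and at 2.40, 2.56 and 3.79 in NaB cells, a rise of 3.28 ± 0.35. H4C15 rose by 3.04 ± 0.21. Most of those called higher belong to the replication-dependent clusters. The lowest were variants outside them, MACROH2A2, above, and the centromeric CENPA (-2.10 ± 0.49).

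Because the histone genes of a class are close copies, their probes may share signal, which was not tested. H4C4 was called in both directions, by -1.66 ± 0.21 with 1 probe and 3.05 ± 0.21 with another. It was 1 of 4 such genes, with DHRS4, KIF22 and WDR74, among 3224 with more than 1 tested probe.

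The best known histone deacetylases changed little in their own RNA. HDAC1 differed by -0.07 ± 0.15 (adjusted p = 0.439), HDAC2 by -0.45 ± 0.13, HDAC3 by 0.59 ± 0.12 and the acetyltransferase EP300 by 0.09 ± 0.22, and none of these 4 reached 2-fold. Their signs turned under other settings and are not given a direction. Of 52 deacetylases, acetyltransferases and co-repressors, 6 were called higher, including the mitochondrial sirtuin SIRT4 (2.60 ± 0.36) and HDAC10 (1.86 ± 0.67), and 9 lower, including MTA3 (-1.94 ± 0.32) and MTA1 (-1.84 ± 0.15) of the NuRD complex. Of 34 Polycomb and DNA methylation genes 8 were lower and 3 higher. PHF19, an accessory factor of PRC2, fell by 2.81 ± 0.57 and PCGF6, of a variant PRC1, by 1.90 ± 0.25, while MBD1, a methyl-CpG binder, rose by 1.46 ± 0.23.

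HOX genes that were called were mostly lower. Of 27 tested, 13 were lower and 2 higher, with a relative median of -1.07 that varied between experiments (SD 0.47). HOXC6 was at -0.38, -0.14 and -0.00093 in Ctl and at -2.75, -2.40 and -2.24 in NaB cells, 4.86-fold lower, and HOXB6 fell 4.14-fold. HOXB2 and HOXD8 rose 3.20-fold and 2.83-fold, calls that both ended with normexp correction. Of 372 zinc finger genes of the ZNF and ZSCAN series 79 were higher and 24 lower. The share higher, 21.2%, was near the 18.8% of all genes, the share lower was 6.45% beside 13.2%, and of the 325 on all 12 arrays 58 were higher and 18 lower. The pseudogene ZNF815P rose 24.3-fold, and ZNF280D fell 4.37-fold.

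Several immediate early and stress transcription factors rose. Of 17 AP-1 and ATF factors 7 were higher (41.2%, beside 18.8% of all genes) and 2 lower (11.8%, beside 13.2%). FOS and ATF3 were among the former, and FOSL1 was the lowest. Of 15 Krueppel-like factors 5 were higher (33.3%) and 1 lower (6.67%). Only 12 of these 15 were well above background on all 12 arrays, and of them 2 were higher and 1 lower. KLF2 was at 2.64, 2.73 and 3.12 in Ctl and at 5.04, 5.33 and 5.51 in NaB cells, a rise of 2.49 ± 0.17, and KLF9 rose by 1.502 ± 0.23. EGR1, an immediate early zinc finger factor, rose by 2.67 ± 0.22.

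Markers of mature colonocytes were largely below detection. Of 36 colonocyte differentiation genes only 10 were tested, 1 called higher and 2 lower, TSPAN1 among the latter (-1.40 ± 0.38). ALPI, FABP1, FABP2, KRT20, SLC26A3, CA1, CA4, AQP8 and VIL1 were on the array and did not pass the filter, and neither did ALPL. CDX2, the intestinal transcription factor, differed by -0.76 ± 0.33. Of 26 mucins, trefoil factors and goblet cell products 7 were tested and 0 called by limma, with MUC2 at 0.82 ± 0.47 (adjusted p = 0.00196). Of 15 stem cell markers 4 were higher and 2 lower. The ephrin receptors of the crypt base, EPHB3 and EPHB2, rose 9.27-fold and 3.77-fold, while CD44, the hyaluronan receptor, fell 7.46-fold and RNF43, which removes Wnt receptors, 4.53-fold. LGR5, ASCL2 and OLFM4 did not pass the filter.

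Keratins and junctions showed no common direction. Of 29 keratins 6 were higher (20.7%, beside 18.8% of all genes) and 4 lower (13.8%, beside 13.2%). Of the 18 on all 12 arrays 2 were higher and 2 lower. KRT86, a hair keratin, changed by 2.42 ± 0.23 and KRT23 by -1.81 ± 0.41. Of 26 tight and adherens junction genes 5 were lower (19.2%) and 2 higher (7.69%). Regulators and markers of epithelial-mesenchymal transition moved both ways, 10 higher (50%) and 5 lower (25%) of 20. Of the 16 on all 12 arrays 6 were higher and 5 lower. SNAI3, of the SNAIL family, rose by 2.58 ± 0.22, and SPARC, a matrix protein, and ESRP1, the epithelial splicing regulator, fell by 1.88 ± 0.50 and 1.47 ± 0.18.

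Signalling pathways held members that moved in both directions. Of 39 Wnt signalling genes and targets 9 were higher and 6 lower, near the shares of all genes (23.1% and 15.4%). The receptor FZD4 rose by 2.47 ± 0.23, and TLE5, a Groucho family co-repressor, fell by 2.81 ± 0.30. Among 36 BMP and TGF-beta genes 11 were higher (30.6%, beside 18.8% of all genes) and 6 lower (16.7%, beside 13.2%). Of the 30 on all 12 arrays 7 were higher and 5 lower. The ligand BMP6 rose by 2.38 ± 0.22, while SMAD3, the signal transducer, and TGIF1, its co-repressor, fell by 2.40 ± 0.15 and 2.47 ± 0.16. Of 28 Notch pathway genes 9 were higher (32.1%) and 1 lower (3.57%), and 5 and 1 of the 22 on all 12 arrays. HES2, a transcription factor of the HES family, rose by 2.99 ± 0.24, and the ligand JAG2 was the 1 member lower (-1.16 ± 0.16).

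Among 38 genes of the EGF receptor family, its ligands and ERK feedback, 9 were higher (23.7%) and 4 lower (10.5%), EREG lowest. Of the 31 on all 12 arrays 7 were higher and 3 lower. DUSP10, a phosphatase of JNK and p38, was at -3.68, -3.21 and -2.90 in Ctl and at -0.65, -0.46 and -0.36 in NaB cells, 6.81-fold higher.

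Immune signalling genes moved in both directions. Of 24 chemokine and NF-kB target genes 8 were higher (33.3%, beside 18.8% of all genes) and 3 lower (12.5%, beside 13.2%). Of the 19 on all 12 arrays 4 were higher and 3 lower. NFKB1, which encodes the p105 and p50 subunit, was at 1.154, 1.28 and 1.39 in Ctl and at -2.39, -1.89 and -1.49 in NaB cells, 9.20-fold lower, and its inhibitor NFKBIA fell 4.57-fold. Of 34 interferon-stimulated genes 7 were higher (20.6%) and 9 lower (26.5%), and 6 and 6 of the 26 on all 12 arrays. IRF7, the interferon regulatory factor, rose by 3.74 ± 0.13, and DHX58 (LGP2), an RNA sensor, by 3.61 ± 0.20. IFI35 fell by 2.33 ± 0.29.

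Of 29 antigen presentation genes 12 were higher (41.4%, beside 18.8% of all genes) and 4 lower (13.8%, beside 13.2%). Of the 22 on all 12 arrays 7 were higher and 3 lower. The class I heavy chains HLA-B and HLA-C and their partner B2M differed by 0.14 to 0.35, were not called, and turned negative when scaled to the median after a floor of 5. TAPBP, the peptide loading chaperone of class I, fell by 2.21 ± 0.31. HLA-DRA of class II was at a median of -5.30 in Ctl and -2.03 in NaB cells and was called higher (3.09 ± 0.84), but it was well above background on only 3 of the 6 Ctl arrays, and the call was lost with normexp correction (0.87). MICA and ULBP2, ligands of the natural killer receptor NKG2D, rose by 1.33 ± 0.09 and 1.97 ± 0.09.

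Cell death genes changed in both directions. Of 17 BCL2 family genes 5 were called lower and 2 higher. BID, a BH3-only protein cleaved by caspases, was at 3.22, 3.27 and 3.90 in Ctl and at 0.14, 0.58 and 0.84 in NaB cells, 7.36-fold lower, and the anti-apoptotic BCL2L1 (BCL-XL) fell by 2.25 ± 0.12. BCL2L11 (BIM), a BH3-only killer, rose by 1.84 ± 0.40 in 6 of 6 experiments, although the levels of the groups overlapped. Of 36 death receptors, caspases and inhibitors, 7 were lower, including the death receptor FAS (-2.38 ± 0.29) and the inhibitor BIRC5 (survivin, -1.94 ± 0.32), and 3 higher, including the kinase DAPK3 (1.51 ± 0.11).

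Most of the actin-binding and tubulin genes tested were not called, 44 of 59 and 15 of 25. Of 59 actin-binding and contractile genes 8 were higher (13.6%, beside 18.8% of all genes) and 7 lower (11.9%, beside 13.2%). CORO1A, a coronin of blood cells, rose by 3.08 ± 0.21, GSN (gelsolin), an actin-severing protein, by 1.60 ± 0.10, and TPM4, a tropomyosin, fell by 1.98 ± 0.15. Of 25 tubulins 5 were higher and 5 lower, 20% each. TUBB3, the neuronal beta-tubulin, rose from 2.51 to 2.90 in Ctl to 4.16 to 5.03 in NaB cells (4.06-fold), and TUBB, a main beta-tubulin, fell 3.13-fold.

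Kinesins moved both ways, 13 lower (38.2%, beside 13.2% of all genes) and 9 higher (26.5%, beside 18.8%) of 34. KIF20A, of cytokinesis, fell by 2.07 ± 0.30, and KIF5C, of axonal transport, rose by 2.51 ± 0.52. Of 86 RAB and ARF GTPases 16 were higher, 18.6% and so near the share of all genes, and 5 lower (5.81%). Among them RAB40B changed by 1.95 ± 0.18 and RAB15 by -2.42 ± 0.09. Of 31 myosins 10 were higher (32.3%) and 3 lower (9.68%), and 6 and 3 of the 26 on all 12 arrays.

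Secreted matrix and protease genes moved both ways. Of 51 extracellular matrix and integrin genes 14 were higher (27.5%, beside 18.8% of all genes) and 7 lower (13.7%, beside 13.2%), CCN2 first, and of the 41 on all 12 arrays 8 were higher and 6 lower. THBS1 (thrombospondin 1) was at -1.91, -1.13 and -0.64 in Ctl and at 2.21, 2.63 and 3.04 in NaB cells, 14.4-fold higher, and ITGB4, the integrin of hemidesmosomes, fell 4.77-fold. Of 33 matrix proteases, plasminogen activators and serpins, 14 were higher (42.4%) and 4 lower (relative median 0.79 ± 0.15), and 11 and 4 of the 26 on all 12 arrays. SERPINI1 (neuroserpin) rose 11.7-fold, while PLAU (urokinase) and SERPINH1, the collagen chaperone, fell 9.17-fold and 7.28-fold. All 12 tested S100 genes, which encode calcium-binding proteins, had a change below -0.48, and 5 were called lower, S100A16 (-2.64 ± 0.22) and S100A2 (-2.16 ± 0.21) first.

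Genes typical of other tissues were often higher, from low levels. Of 45 neuronal and neurosecretory genes 28 were called higher (62.2%) and 1 lower. Only 28 of the 45 were well above background on all 12 arrays, and of these 13 were higher and 1 lower. With normexp background correction the counts were 13 and 1 of 45, and with quantile normalization 22 and 3. MAP2, a dendritic microtubule protein, was at -1.42, -1.05 and -1.02 in Ctl and at 1.86, 1.90 and 2.62 in NaB cells, a rise of 3.18 ± 0.30, and STMN3, a stathmin, was the 1 member lower (-1.36 ± 0.21). CHGA, a protein of secretory granules, was detected on 0 of 6 Ctl and 6 of 6 NaB arrays. The synaptic genes SNAP25 and SYT1 differed by 0.82 ± 0.14 and 0.15 ± 0.34 and were not called.

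Lists of other tissues held fewer genes, and a large part of them was near background on Ctl arrays. Of 22 germ-cell and cancer-testis genes 12 were higher and 0 lower, but only 4 of the 13 that were well above background on all 12 arrays and 4 of 22 with normexp correction. DPPA2, an early embryo gene, rose by 2.18 ± 0.18, a call lost with normexp (0.79). Of 46 potassium, sodium and calcium channel subunits 18 were higher and 3 lower, CACNA1G, a T-type calcium channel, by 3.11 ± 0.34. Of the 22 on all 12 arrays 6 were higher and 3 lower. Of 20 muscle genes 7 were higher, DES (desmin) by 2.01 ± 0.18, and 2 lower, TNNT1 by -1.43 ± 0.10, but on all 12 arrays the counts were 1 higher and 2 lower of 11. Of 15 liver and plasma protein genes 7 were higher, with NR1H4 above, and 2 lower, with APOC1 at -1.57 ± 0.37, and 3 and 1 of the 8 on all 12 arrays. The rise of the median level of all probes on NaB arrays moved with these increases, and its part in them was not tested.

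Both genes used as loading references were not called. GAPDH ranged from 7.03 to 7.87 in Ctl and from 7.17 to 8.30 in NaB cells (0.23 ± 0.20), and ACTB differed by 0.26 ± 0.19. Scaled to the median after a floor of 5 their values were -0.58 and -0.55.

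The same butyrate treatment in the presence of doxycycline gave a similar response for most genes. Of the 4846 genes called, 4842 had a change of the same sign under doxycycline and 4134 were called there too. The difference between the responses passed an adjusted p under 0.01 for 160 of 15157 genes (1.06%), 67 of them called without doxycycline. Among the genes named here, MYC differed by -0.95 without and -2.54 with doxycycline, CCND1 by -2.07 and -3.11, and CCN2 by 6.59 and 5.20. TCF7L2, the gene of Tcf4, differed by 0.81 ± 0.96 without and by 3.95 with doxycycline. Its levels without doxycycline overlapped (adjusted p = 0.0468). How far the TCF7L2 probe reads the DN-Tcf4 transgene rather than the cells' own gene was not tested.

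Called genes came from every autosome and X. The share called higher lay between 14.1% of 241 genes on chromosome 13 and 23.6% of 512 on chromosome 15, and that called lower between 9.20% of 511 on X and 17.3% of 773 on chromosome 12. Promoters were also grouped by CpG content. A ratio of observed to expected CpG under 0.4 was found in 27.4% of 625 promoters of genes called higher over 4-fold, 16.3% of 283 of those lower over 4-fold and 11.6% of all 10500. TATAAA was in 12.5%, 7.07% and 5.96%, and the GC box GGGCGG in 62.9%, 69.6% and 69.8%. These shares are descriptions with no test.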

How the data were processed

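RNA of 24 cultures (4 treatments in 6 experiments) was hybridised to 1-colour Agilent arrays, and the comparison of NaB with Ctl used 12 of them. Nothing in the labels says whether the 6 experiments were separate passages, so p-values measure the spread between these cultures. The deposited files give, per the file headers, the intensity of each spot from Agilent Feature Extraction as a processed signal with local background and spatial trend removed, together with mean and background signals, and the deposited flags for control, outlier and well-above-background spots. No step had scaled arrays to each other. The paper's methods name a paired test with limits of 0.01 and 0.05 for P, and its results a change over 2-fold. Here 2-fold was used with an adjusted p under 0.01.

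Control and flagged spots (359 to 646 flagged per array) were left out, spots of a probe were averaged, and log2 values of the deposited signals were taken relative to the 75th percentile over the probes of the array, which was 307.9 to 938.4 signal units. The number of arrays and their signal over background limit the precision. Probes were named through the accessions in the files (25104 probes), current symbols (1089), older symbols (435) or the files' own names (7499), with a RefSeq table of GRCh38.p14 used for names and promoters only. Probe coordinates are those of the files, on NCBI36. Probes that passed the software's background test on every array of 1 or more treatments were tested (18983 probes), and a gene was represented by its tested probe of highest mean level (15157 genes).

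limma 3.58.1 in R 4.3.3 (lmFit, eBayes) fitted all 24 arrays with the experiment as a block. Arrays of an experiment are paired by the labels. The NaB and Ctl deviations from their group means correlated by 0.400 to 0.703 within an experiment and by -0.607 to 0.637 between different experiments. These ranges overlap, and the NaB array of experiment 3 correlated more with the Ctl array of experiment 2 (0.637) than with its own (0.400). Experiments 2 and 3 shared a scan date. Lists were described by counts and medians without a set test. The script was tested on simulated data. Summaries and plots used pandas 2.3.3, numpy 2.4.6 and matplotlib 3.10.9 under Python 3.11.15.

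The comparison, the gene lists and the named genes were chosen with earlier results of these data known. Named genes are the 15 highest and 15 lowest called genes that changed the same way in every experiment and were well above background on all 12 arrays, up to 2 highest and 2 lowest such members of each list, genes detected in 1 group only, the marker lists and a set of known butyrate and reference genes, of all of which a part is printed. CCNA2, MCM2, PCNA, ESPL1, MRTO4, CTSB, SQSTM1, MAP1LC3B, TFEB, CDX2, MUC2, HLA-B, HLA-C, HLA-DRA, B2M, MICA, ULBP2, CHGA, SNAP25, SYT1 and H4C4 were chosen after their values were seen. Alternatives to the background correction, scaling, filter, block, test, thresholds, probe summary and experiments used were run. Values of some genes are not reported here.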

Additional observations from a re-analysis of the deposited data

Results flagged for a closer look

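In 20 of 260 sets of 6 values, for 200 genes and 60 lists, 1 experiment stood apart from the other 5, by Dixon's criterion on the gap to the nearest other. Chance gives about 1 in 20 such sets. Experiment 1 stood apart with a log2 change of 1.53 for CCND3, -0.49 for SLC7A11, 2.82 for KLF2 and -3.22 for ESPL1, and with a relative median of -0.35 for the tight and adherens junctions. In experiment 3 the change was 1.13 for CDKN2D, 2.28 for ALDOC, 1.91 for SLC25A4, -2.81 for ZNF280D and -3.28 for CD44, and the relative median of the keratins was 0.37. Experiment 4 gave -0.838 for CLDN7, -1.695 for TPM4 and 0.745 for CD14, and experiment 5 gave 3.50 for KIF5C. Experiment 6 gave 6.42 for THY1, -1.57 for CTPS1, -1.69 for EMG1, -1.29 for MRPL11 and -1.545 for MTA1. In each of these genes the change had the same sign in all 6 experiments.

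The response to butyrate differed with doxycycline, by the interaction of limma at an adjusted p under 0.01, for 12 of the named genes. The log2 change without minus that with doxycycline was 1.60 for MYC, 1.04 for CCND1, 0.96 for RNF43, 1.89 for SLC7A11, 1.375 for KRT23 and 0.81 for TGIF1, all of which had a lower level in NaB with a larger decrease under doxycycline. The difference was 1.40 for CCN2 (adjusted p = 0.00686), 1.01 for HES2, 0.78 for FANCF, 0.67 for KLF9 and 0.66 for HOXD8, all higher in NaB with a smaller increase under doxycycline. For TCF7L2 the difference was -3.14 (adjusted p = 0.00156), and the part of the DN-Tcf4 transgene in that signal was not tested.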

How the results depend on the processing

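Of the settings tried, the fold threshold moved the number of genes called most, and the median scaling with a floor of 5 moved their direction most. The counts were 2847 higher and 1999 lower (58.8% of those called higher). With normexp they were 1233 and 1322 (48.3%), with the median after a floor of 5 they were 1159 and 5908 (16.4%), and with quantile normalization 46.1% were higher. Scaling to the median of probes well above background on all 24 arrays gave 62.1% higher, no filter 66.9%, and only probes well above background on all 12 arrays 1667 genes higher and 48.5%. At a fold over 1.5 the counts were 4399 and 3544 (55.4%), and over 3 they were 1477 and 786 (65.3%). Chosen after seeing the data, the 75th percentile over spots gave 65.5%, while subtracting negative controls (58.6%) and experiments 1, 5 and 6 alone (56.2%) stayed within the SD over experiments of 3.05 points. The causes were not tested.

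Leaving out 1 experiment in turn gave 2770 to 2859 higher and 1926 to 2041 lower genes, 57.8% to 59.2% higher. Without experiment 1 the calls of CCND3 and COL1A1 were lost, without experiment 3 that of CDKN1B, without experiment 4 those of CDKN1B and COL1A1, and without experiment 5 that of COL1A1, all at log2 changes of 0.94 to 1.00 in size. PCNA and TCF7L2 passed the thresholds without experiment 6, at -1.03 and 1.16. Without the replicate block 2560 genes were called higher and 1949 lower (56.8%), and the block changed the call of 2 named genes, COL1A1 and HBB. The methods' t-test gave 2701 and 1914 genes with an unadjusted p and 2628 and 1879 after Benjamini-Hochberg adjustment.

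With normexp correction 17 named genes were no longer called: TLR3, CDKN1B, FANCF, SEL1L, XBP1, HDAC10, HOXB2, HOXD8, CLDN7, JAG2, DPPA2, CD14, COL1A1, HBB, HLA-DRA, TFEB and VWF. Signs turned as follows. With the median after a floor of 5, log2 changes were -0.34 for CDKN1A, -0.23 for HDAC3, -0.72 for EP300, -0.58 for GAPDH, -0.55 for ACTB, -0.62 for B2M, -0.46 for HLA-B, -0.67 for HLA-C and -0.66 for SYT1. HDAC1 was at 0.0385 with normexp, 0.24 with quantile normalization, 0.0901 in experiments 5 and 6, 0.0325 with the percentile over spots and 0.0204 in experiments 1, 5 and 6. EP300 was at -0.0783, -0.65, -0.15 and -0.0098 in the first 3 of these and the last, and at -0.0081 with the slide as block. MUC2 was at -0.0522 with quantile normalization and SYT1 at -0.0436 in experiments 5 and 6. With the mean over a gene's probes, HDAC2 was at 0.11 and H4C4 at 0.70. Relative medians of the 66 lists moved by over the SD between experiments in 37 with normexp, 48 with quantile normalization, 64 with no filter, 21 with probes well above background on all 12 arrays, 9 to 23 with part of the experiments, and 0 to 3 under the other settings. Changes of genes not well above background on all 12 arrays rest in part on signals near background.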

Other observations

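Small structural and regulatory RNAs were outside the functional lists. All 6 small nuclear RNA genes tested were called higher, beside 18.8% of all genes. Among them were RNVU1-18, a U1 gene (2.28 ± 0.21, SD, n = 6), RNU2-1, a U2 gene (1.42 ± 0.17), and RN7SK, the inhibitor RNA of P-TEFb (1.41 ± 0.27). RPPH1, the RNA of RNase P, rose by 2.33 ± 0.29, RMRP, that of RNase MRP, by 1.61 ± 0.47, and TERC, the telomerase template, by 1.32 ± 0.16. Of 296 long non-coding RNA genes 76 were called higher (25.7%) and 27 lower (9.12%), beside 18.2% and 14.7% of 12577 protein-coding genes. Of 18 small nucleolar RNA genes 3 were higher (16.7%) and 0 lower. Of 3 ribosomal RNA genes and 1 small cytoplasmic RNA gene 0 were called. These values are descriptions, and the part of the generally higher signal of dim probes on NaB arrays in them was not tested.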
